A study of Homo sapiens with 7 samples.

Results

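The gene desert regions are stretches of open chromatin that lay more than 500 kb from the span of every protein-coding gene. They were chosen by strength and position alone. A peak was called strong where the number in its name was at most 80000, and the authors' numbers follow the deposited −log10 p, strongest first. Strong peaks that overlapped, in the 7 lists together (chromosomes 1 to 22, X), were joined, and 8929 of the 167407 merged regions (5.33%) passed the distance limit against the 19974 protein-coding genes of the RefSeq table. No measure of stage was used to choose them.

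The libraries came from ATAC-seq, in which the Tn5 transposase inserts adapters into open chromatin, of H1, an established human embryonic stem cell line, along a directed differentiation. The stages were undifferentiated cells (hESC, 2 libraries), definitive endoderm (hDE, 2), anterior foregut endoderm (hAFE, 2) and pharyngeal foregut endoderm (hPFE, 1), all with no genetic change named in the labels. Titles mark the libraries of hESC and of hDE as re-analysed but not those of hAFE or hPFE. Stage and origin therefore cannot be told apart where hESC or hDE is compared with hAFE or hPFE. The labels do not say that replicates were separate cultures, so p-values measure only the spread between these libraries, and hPFE has no replicate.

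Gene deserts are long intervals without protein-coding genes. Many are bordered by genes that control development, and some hold enhancers that act on such a gene from a great distance, as is well known for the intervals beside SOX9 and MYC. Distal enhancers as a class are used in fewer cell types than promoters are. The DNA between genes also holds the starts of long non-coding RNAs (lncRNAs), transcripts that do not code for protein.

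The RefSeq promoter table (GRCh38.p14, 250 bases before to 50 after a start) gave the sequences of lncRNA promoters that overlapped a gene desert region. They are shown as annotated elements inside intervals without protein-coding genes. Capitals mark matches, on either strand, to 9 motifs that were searched. Those of the core promoter were TATAAA, which the TATA-binding protein prefers, CCAAT, which the factor NF-Y prefers, and the GC box GGGCGG, which SP factors prefer. Those of developmental factors were ATTTGCAT for POU proteins such as POU5F1, TGTTTAC for forkhead proteins such as FOXA2, AGATAA for the zinc finger proteins GATA4 and GATA6, AGGTGTGA for T-box proteins such as EOMES and TBX1, and GGATTA for the homeodomain proteins OTX2 and GSC. The last was TGANTCA for the AP-1 complex. In the 7 sequences printed here each run of capitals is 1 motif. The first 4 promoters lay in regions that were strong in every library: LINC02987 (chr19:27793181-27793480, plus strand), LINC00662 (chr19:27793891-27794190, minus strand), LINC02394 (chr12:74021830-74022129, plus strand) and LINC03051 (chr3:117997530-117997829, minus strand). LINC02987 and LINC00662 point in opposite directions inside 1 region.
LINC02987: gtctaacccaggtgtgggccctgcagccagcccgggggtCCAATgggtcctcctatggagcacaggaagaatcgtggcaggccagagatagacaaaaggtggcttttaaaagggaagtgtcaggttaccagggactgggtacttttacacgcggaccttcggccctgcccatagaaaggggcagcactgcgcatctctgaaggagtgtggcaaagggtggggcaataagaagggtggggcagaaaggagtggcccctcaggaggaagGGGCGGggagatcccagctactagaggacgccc
LINC00662: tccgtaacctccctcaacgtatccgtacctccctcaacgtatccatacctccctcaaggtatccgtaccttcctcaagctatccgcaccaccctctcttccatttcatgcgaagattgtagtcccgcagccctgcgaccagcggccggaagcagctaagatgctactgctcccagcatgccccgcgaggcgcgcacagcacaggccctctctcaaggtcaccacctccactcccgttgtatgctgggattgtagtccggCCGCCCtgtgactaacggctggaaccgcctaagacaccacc
LINC02394: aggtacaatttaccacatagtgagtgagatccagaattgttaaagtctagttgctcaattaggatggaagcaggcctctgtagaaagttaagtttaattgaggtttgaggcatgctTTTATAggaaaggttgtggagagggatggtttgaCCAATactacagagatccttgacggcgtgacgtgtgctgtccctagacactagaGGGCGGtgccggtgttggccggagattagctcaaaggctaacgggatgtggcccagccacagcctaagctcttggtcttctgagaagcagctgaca
LINC03051: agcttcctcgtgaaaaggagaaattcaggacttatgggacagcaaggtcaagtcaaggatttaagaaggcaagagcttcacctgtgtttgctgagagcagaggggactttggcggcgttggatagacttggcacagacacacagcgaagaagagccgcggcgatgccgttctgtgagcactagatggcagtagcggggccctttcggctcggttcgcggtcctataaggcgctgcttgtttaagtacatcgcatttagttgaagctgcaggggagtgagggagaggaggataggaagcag

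The next 3 promoters lay in regions with a peak in 1 or 2 stages only and are shown for that pattern. LOC105372699 (chr20:60750182-60750481, plus strand) had peaks in the hESC libraries only. LINC00613 (chr4:135913631-135913930, minus strand) had peaks in the hDE and hAFE libraries only. LINC01706 (chr20:7347183-7347482, plus strand), in the gap between BMP2 and HAO1, had a peak in the hPFE library only.
LOC105372699: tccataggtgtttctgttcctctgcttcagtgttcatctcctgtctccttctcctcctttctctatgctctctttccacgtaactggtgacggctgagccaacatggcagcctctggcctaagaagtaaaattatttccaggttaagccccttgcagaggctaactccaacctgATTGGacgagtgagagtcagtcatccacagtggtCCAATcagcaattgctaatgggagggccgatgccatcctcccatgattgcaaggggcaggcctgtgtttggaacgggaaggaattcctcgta
LINC00613: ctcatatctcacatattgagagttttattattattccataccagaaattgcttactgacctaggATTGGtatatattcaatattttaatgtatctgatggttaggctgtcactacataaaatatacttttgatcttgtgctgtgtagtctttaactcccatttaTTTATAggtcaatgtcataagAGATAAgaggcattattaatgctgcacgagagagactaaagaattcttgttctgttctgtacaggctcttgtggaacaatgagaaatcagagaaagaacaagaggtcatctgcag
LINC01706: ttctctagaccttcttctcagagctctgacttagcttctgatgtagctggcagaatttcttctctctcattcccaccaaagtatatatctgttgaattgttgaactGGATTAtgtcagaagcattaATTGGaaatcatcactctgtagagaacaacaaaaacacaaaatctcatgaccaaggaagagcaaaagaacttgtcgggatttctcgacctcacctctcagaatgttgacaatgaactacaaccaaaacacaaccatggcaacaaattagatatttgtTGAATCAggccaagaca

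Every library held a set of strong gene desert regions, and they made up a small share of its strong regions. The numbers were 2453 and 1689 in hESC replicates 1 and 2, 2214 and 3816 in hDE replicates 1 and 2, 2017 and 2213 in hAFE replicates 1 and 2, and 2591 at hPFE. As a share of all strong regions of the library they came to 4.03% and 2.64% at hESC, 3.66% and 5.68% at hDE, 3.05% and 3.56% at hAFE and 4.21% at hPFE. The stages overlapped, and hDE replicate 2 stood highest.

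The share overlapped between differentiated and undifferentiated cells. It averaged 4.03% over the 5 libraries after hESC and 3.33% over the 2 hESC libraries, a difference of 0.70 percentage points (two-sided exact permutation test over 21 arrangements, p = 0.476, adjusted p = 0.476; the smallest p possible was 0.0476). Only 2 of the 5 later libraries lay above both hESC libraries. Without hESC replicate 1 the difference was 1.40 points and without hESC replicate 2 it was 0.00512 points, so the size rested on which hESC library was kept. All 6 p-values of the tests given here were adjusted together by the Benjamini-Hochberg method, with a threshold of 0.05.

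**Figure D1:**
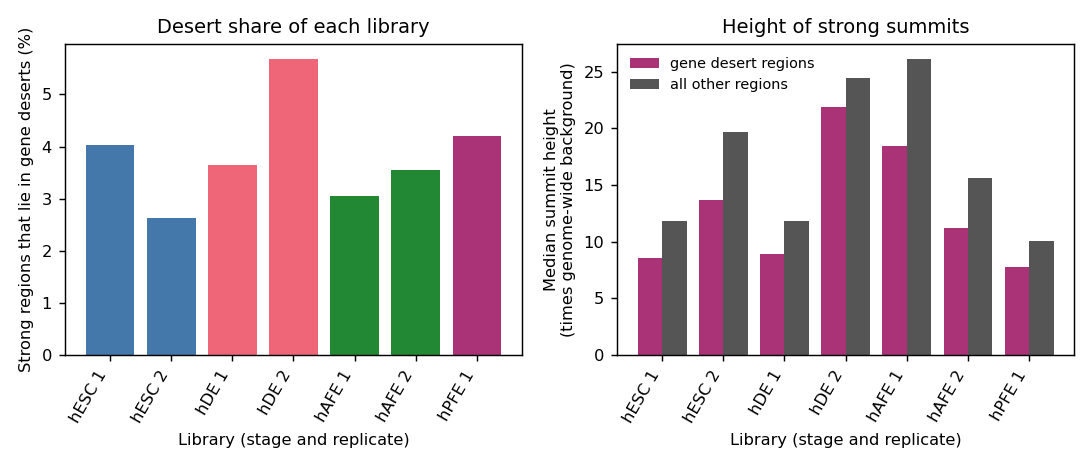
Left, the share of each library's strong regions that lie in gene deserts, in percent, 1 bar per library. Right, the median height of strong summits in multiples of the genome-wide background, for gene desert regions and for all other regions. The share runs from 2.64% to 5.68% with overlapping stages, and in all 7 libraries the gene desert bar is the shorter of the pair.

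The peak lists hold 298508 to 299374 peaks per library and no read numbers. Depth was read from the genome-wide background of cut sites under the peaks, which was 2.11 and 4.62 in hESC replicates 1 and 2, 4.58 and 7.94 in hDE replicates 1 and 2, 2.22 and 3.85 in hAFE replicates 1 and 2 and 5.66 at hPFE. The weakest strong peak had a −log10 p between 7.25 in hESC replicate 1 and 69.2 in hDE replicate 2. The library with the most gene desert regions, hDE replicate 2, thus also had the highest background, and the part of depth in its count was not tested. As a check of the labels, the number of strong regions within 100 kb of marker genes was highest in the matching stage for the hDE (40 and 41) and hPFE (32) markers. For the hESC markers the hESC libraries had 36 and 47, and hDE replicate 1 also had 36. For the hAFE markers both hAFE libraries had 37, and so did hESC replicate 2.

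Gene desert summits were lower and narrower than those of other regions in every library. Height is the summit's count of cut sites over the genome-wide background of its own library. Median heights of gene desert regions were 8.53 and 13.6 at hESC, 8.95 and 21.9 at hDE, 18.5 and 11.2 at hAFE and 7.77 at hPFE. Those of the other regions were 11.8 and 19.7 at hESC, 11.8 and 24.4 at hDE, 26.1 and 15.6 at hAFE and 10.1 at hPFE. The mean difference was −4.17 (12.9 for gene desert regions and 17.1 for the rest, lower in all 7 libraries, two-sided exact sign-flip permutation test, p = 0.0156, the smallest possible, adjusted p = 0.0234).

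The median width of strong gene desert regions averaged 458 bp, against 534 bp for the rest, a difference of −75.9 bp in the same direction in all 7 libraries (exact permutation test, p = 0.0156, the smallest possible, adjusted p = 0.0234). The rest includes promoters and gene bodies. Set against the 27072 regions that lie 100 to 500 kb from genes, the differences shrank to −0.82 in height and −17.4 bp in width (exact permutation tests, adjusted p = 0.0313 for each). Without the hPFE library the differences from all other regions were −4.48 and −74.0 bp, each with an adjusted p of 0.0938 in the exact permutation test.

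Most strong gene desert regions of a library also had a peak in its replicate. Of the strong gene desert regions of hESC replicates 1 and 2, 91.7% and 94.3% had a deposited peak of any strength in the partner library. The shares were 99.8% and 87.5% for hDE replicates 1 and 2, and 94.7% and 92.7% for hAFE replicates 1 and 2. The mean difference from the rest was −2.42 percentage points (93.4% for gene desert regions and 95.9% for the rest, higher in 2 of 6 libraries, exact permutation test, p = 0.1875, adjusted p = 0.225), and the smallest p possible was 0.03125. The 6 values come from 3 replicate pairs, each taken in both directions. They are not independent, although the test treated them so.

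Most gene desert regions were strong in few libraries. Of the 8929 regions, 4865 (54.5%) were strong in 1 library, against 43.0% of the other regions. A further 25% were strong in 2 libraries, against 21.3%. Only 134 (1.5%) were strong in all 7, against a background of 11.1% of all regions. Without the hPFE library 4.31% were strong in the other 6, a looser rule to which the 11.1% does not apply. Counting peaks of any strength, 711 gene desert regions (7.96%) had a peak in every library, against 25.6% of the rest.

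**Figure D2:**
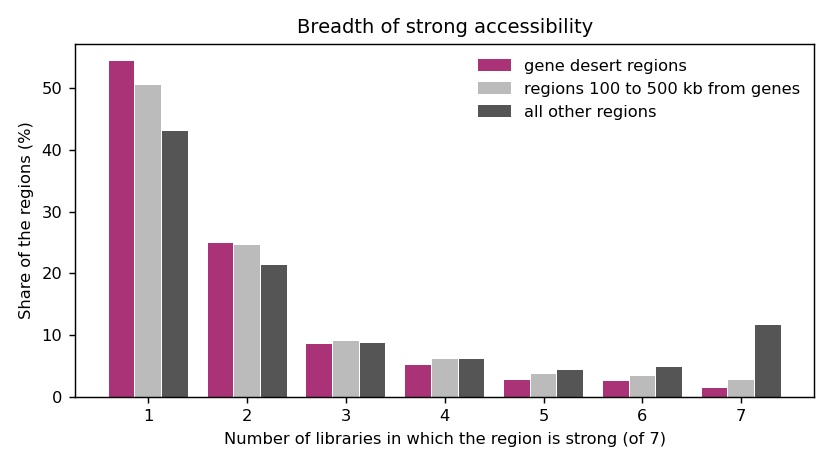
The share of regions, in percent, by the number of libraries in which a region is strong, for gene desert regions, regions 100 to 500 kb from genes and all other regions. Gene desert regions stand highest at 1 library (54.5%) and lowest at 7 (1.5%), and the regions 100 to 500 kb from genes lie close to them (50.6% and 2.76%).

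The change ran in steps with distance from genes. The share strong in all 7 libraries was 16.7% inside protein-coding genes, 10.3% up to 10 kb away, 6.49% at 10 to 100 kb, 2.76% at 100 to 500 kb, 1.5% beyond 500 kb and 1.24% in the part beyond 1 Mb. Gene desert regions also had the lowest share among the strongest regions. For regions whose best peak number was at most 10000, 9.38% of the 810 gene desert regions were strong in all 7 libraries, against 15.6% of those at 100 to 500 kb and 55.9% of all other regions.

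The regions divided the libraries by stage. The Jaccard index, the number of regions strong in both libraries divided by the number strong in either, was 0.448 for the hESC pair, 0.499 for the hDE pair and 0.472 for the hAFE pair. It was 0.0626 to 0.210 for the 18 pairs of libraries from different stages, so the groups of pairs did not overlap. The mean was 0.473 within stages and 0.152 between them, a difference of 0.321 (one-sided exact permutation test over 105 arrangements, p = 0.00952, the smallest possible, adjusted p = 0.0234).

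Within the re-analysed libraries alone the index averaged 0.474 for the 2 pairs within a stage and 0.192 for the 4 pairs of hDE with hESC. Within the other libraries it was 0.472 for the hAFE pair and 0.123 and 0.141 for hPFE with hAFE replicates 1 and 2. The lowest similarity was that of hPFE with hESC and hDE, pairs that also differ in origin. It was 0.0730 and 0.0626 with hESC replicates 1 and 2, and 0.0747 and 0.0727 with hDE replicates 1 and 2. Without hPFE the contrast was 0.290 and the exact permutation test could give no p below 0.0667.

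The contrast between stages was 0.0733 larger in gene desert regions than in all other regions (0.321 and 0.248, two-sided exact permutation test, p = 0.00952, adjusted p = 0.0234). The permutations here rearranged the libraries in both sets of regions at once, which removes the stage structure from both. Their p-values therefore cannot decide whether the contrasts of both sets are equal. Set against the regions 100 to 500 kb from genes, the difference was −0.000731 (exact permutation test, adjusted p = 0.819). Without hPFE the excess over all other regions was 0.0736, with an adjusted p of 0.100 in the exact permutation test. The ratio of the mean index within stages to that between them was 1.52 inside genes, 1.61 up to 10 kb, 2.00 at 10 to 100 kb, 2.66 at 100 to 500 kb and 3.11 beyond 500 kb.

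**Figure D3:**
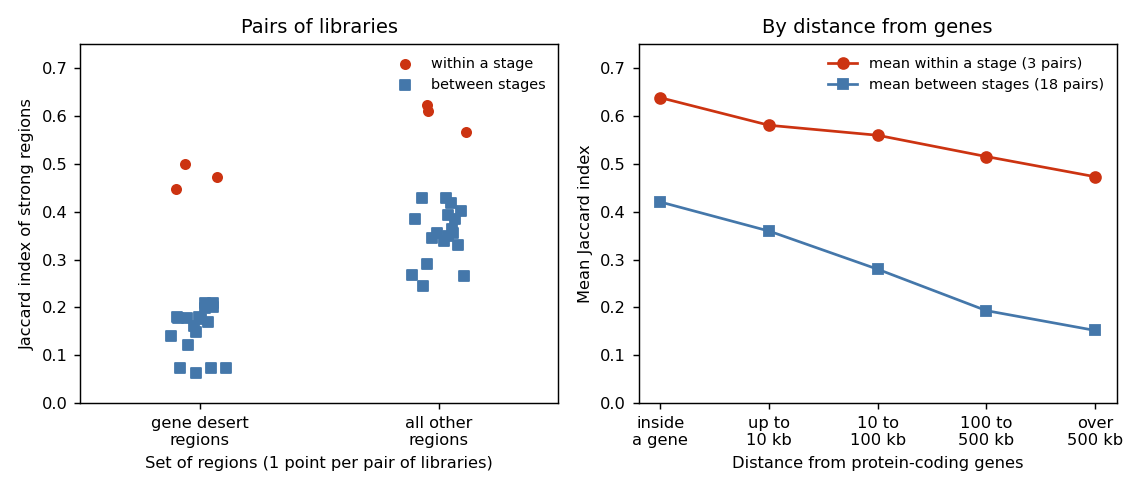
Left, the Jaccard index of strong regions for each pair of libraries, within a stage (3 pairs) and between stages (18 pairs), for gene desert regions and for all other regions. Right, the mean index against distance from protein-coding genes. Gene desert pairs lie at 0.448 to 0.499 within stages and 0.0626 to 0.210 between, and both curves fall with distance.

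Definitive endoderm opened more gene desert regions than it closed. A region was gained where it was strong in every library of the later stage with no deposited peak in any library of the earlier one, and lost in the reverse case. In hDE against hESC 812 gene desert regions (9.09%) were gained, against 5.94% of all regions, and 186 (2.08%) were lost, against 1.57% of all regions. Another 547 (6.13%) were strong in all 4 libraries, against 16.0% of all regions. Comparing single libraries, 1010 to 2223 regions opened and 352 to 933 closed between these stages, while 5 to 478 regions were strong in 1 replicate and without a peak in its partner. Leaving out hDE replicate 1 raised the gained share to 21%. The lost share was 3.75% without hESC replicate 1, 6.51% without hESC replicate 2 and 4.29% without hDE replicate 2.

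Relative to hDE, anterior foregut endoderm lost more gene desert regions than it gained by the rule over both replicates. The direction was not shared by all single pairs of libraries. In hAFE against hDE 247 gene desert regions (2.77%) were gained, near the 2.73% of all regions, and 563 (6.31%) were lost, against 3.70% of all regions. Single pairs opened 518 to 932 and closed 800 to 1902 regions. Against hDE replicate 1, hAFE replicate 1 opened 775 and closed 800, and hAFE replicate 2 opened 932 and closed 827. Against hDE replicate 2 they opened 518 and 678 and closed 1861 and 1902. Leaving out hDE replicate 1 raised the lost share to 17.4%. The gained share was 5.82% without hDE replicate 2, 6.89% without hAFE replicate 1 and 5.31% without hAFE replicate 2.

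The pharyngeal foregut library gained more gene desert regions than it lost, relative to hAFE. In hPFE against hAFE 1263 gene desert regions (14.1%) were gained, against 9.27% of all regions, and 564 (6.32%) were lost, against 5.54%. Over the whole course, in hPFE against hESC, 1736 (19.4%) were gained and 778 (8.71%) lost, against 14.0% and 7.64% of all regions. Another 220 (2.46%) were strong in all 3 libraries, against 13.6% of all regions. Single pairs of hPFE with an hAFE library opened 1418 to 1542 and closed 1030 to 1038 regions. With an hESC library they opened 1891 to 1954 and closed 1092 to 1635. These counts rest on the single hPFE library, and a gain had to hold in 1 library at hPFE but in 2 at hDE and hAFE, so the shares of the steps are not comparable. Gains and losses within a comparison with hPFE follow unlike rules too, since a loss had to be strong in 2 libraries of the earlier stage. At 100 to 500 kb from genes the gained shares were 8.0% at hDE, 3.15% at hAFE and 11.8% at hPFE against the stage before, and the lost shares 1.81%, 5.19% and 6.70%. In hPFE against hESC regions at that distance gained 17.3% and lost 8.99%. Both lost shares involving hPFE thus lay slightly above those of gene desert regions. Without hAFE replicate 1 or 2 the lost share in hPFE against hAFE was 12.1% in either case. The gained share was 16.5% without replicate 1 and 18.1% without replicate 2. In hPFE against hESC the lost share was 13.4% without hESC replicate 1 and 19.0% without hESC replicate 2. The gained shares were 23.9% and 21.7% in the same order.

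Regions with a peak in 1 stage only were most frequent in hPFE. There were 115 hESC-only regions (1.29% of gene desert regions, background 0.835% of all regions), 360 hDE-only (4.03%, background 2.30%), 91 hAFE-only (1.02%, background 0.868%) and 972 hPFE-only (10.9%, background 6.91%). The hPFE count is not comparable with the others, since it had to hold in 1 library and the others in 2. Counted library by library, 67 and 23 strong gene desert regions of hESC replicates 1 and 2, 1 and 247 of hDE, 31 and 45 of hAFE and 972 of hPFE had no peak in any other library. For hPFE that was 37.5% of its strong gene desert regions, against 18% of its other strong regions. The counts by library are not comparable either, since a replicate partner removes the regions both share and hPFE has no partner. Its 972 is the hPFE-only count again.

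Combinations of stages were rare. Only 11 regions (0.123%, background 0.171%) were strong in all 5 libraries after hESC without a peak in hESC. There were 42 (0.470%, background 0.355%) shared by hDE and hAFE only and 43 (0.482%, background 0.424%) shared by hAFE and hPFE only. These shares lay near the background.

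The 4 named regions that were open at every stage lay inside lncRNA genes. For each pattern the 4 regions with the lowest worst peak number are named. On chromosome 9 the region at chr9:63817027-63818485, inside the lncRNA LINC00537 and the pseudogene DUX4L50, had heights of 46.0 and 94.4 at hESC, 43.7 and 138 at hDE, 92.8 and 90.1 at hAFE and 36.9 at hPFE. It lies in a family of near-identical copies, and how reads that match several copies were placed is not stated in the labels. The region of the paired LINC00662 and LINC02987 starts (chr19:27793065-27794856), whose sequences are given above, reached 39.8 and 50.2 at hESC, 50.4 and 108 at hDE, 102 and 96.4 at hAFE and 33.4 at hPFE. Both regions exceeded 30 times the background in all 7 libraries.

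The third, chr5:89703478-89704339, inside LINC02161, lies 687.9 kb from CETN3, a centrin, and 799 kb from MEF2C, a transcription factor of muscle, heart and neurons. It had heights of 19.4 and 36.4 at hESC, 20.1 and 43.8 at hDE, 65.8 and 38.7 at hAFE and 20.8 at hPFE. The fourth was the LINC02394 start (chr12:74021741-74022350), with 42.7 and 39.6 at hESC, 24.2 and 59.9 at hDE, 59.0 and 41.6 at hAFE and 14.3 at hPFE. No stage lacked any of these 4 regions.

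Regions open in hESC only included chr3:106829886-106830802 between CBLB and CCDC54, with heights of 20.4 and 34.6 in hESC replicates 1 and 2 and no peak in any later library. The region chr2:103791960-103792461 had heights of 16.6 and 39.6 and lay 948.1 kb from TMEM182 and 1060.8 kb from POU3F3, a POU-domain factor of the developing brain. The other two, chr3:163722050-163722848 between OTOL1 and SI and chr21:19120362-19121144 between TMPRSS15 and NCAM2, reached 21.3 and 24.2, and 13.7 and 29.0. In each of the 4 regions the summit of hESC replicate 2 was the taller.

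Regions open in hDE only were led by chr6:67041421-67042540, in the gap between EYS, a gene of the retina, and ADGRB3, an adhesion receptor of neurons, with heights of 32.8 and 63.7 in hDE replicates 1 and 2. The region chr11:42255173-42256270, inside the lncRNA LOC105376642 and 795.5 kb from LRRC4C, the netrin-G1 ligand, had 28.2 and 59.9. The others were chr10:65334546-65335254 near CTNNA3 (27.7 and 57.4) and chr8:114649513-114650433 between CSMD3 and TRPS1 (28.4 and 60.7). All 4 had summits in hDE replicate 2 above those in replicate 1.

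Regions open in hAFE only were chr6:114931306-114931924 between HS3ST5 and FRK, with heights of 56.3 and 31.9 in hAFE replicates 1 and 2, chr6:67473778-67474177 (44.6 and 34.0), chr2:13725564-13726120 near LRATD1 (77.5 and 28.8) and chr4:130627008-130627608 near C4orf33 (62.6 and 23.9). The second lies in the same gap between EYS and ADGRB3 as the leading hDE-only region. That gap held 47 gene desert regions, of which 8 were strong in each hESC library, 15 and 28 at hDE, 8 and 14 at hAFE and 9 at hPFE.

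Regions open in hPFE only had heights of 29.3 at chr14:43687609-43688406, 26.3 at chr1:188027481-188028176, 25.1 at chr4:32858809-32859346 and 26.1 at chr10:109343265-109343936. The first lies between LRFN5, a synaptic adhesion protein, and FSCB. The second lies between PLA2G4A and BRINP3, the third between PCDH7, a protocadherin, and ARAP2, and the fourth between SORCS1, a sorting receptor, and XPNPEP1. Beside the first, in the same LRFN5 to FSCB gap, the leading region shared by hAFE and hPFE (chr14:43204783-43205341) had heights of 87.4 and 52.2 at hAFE and 18.4 at hPFE, with no peak in hESC or hDE.

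Regions open in every library after hESC included chrX:82813373-82814187, 694.1 kb from POU3F4, a factor of the inner ear and brain, with heights of 11.1 and 39.9 at hDE, 68.0 and 26 at hAFE and 19.4 at hPFE. In the HS3ST5 to FRK gap that also held the leading hAFE-only region, chr6:114977429-114978312 had 14.4 and 34.4 at hDE, 60.4 and 15.1 at hAFE and 18.6 at hPFE. The other 2 were chr4:136644286-136644675 near PCDH18 and chr4:28902072-28902830 between STIM2 and LOC124900844. The HS3ST5 to FRK gap thus held regions with different stage patterns.

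Regions shared by hDE and hAFE only were led by chr4:12802092-12802523 between HS3ST1 and RAB28, with heights of 13.5 and 44.6 at hDE and 49.5 and 19.5 at hAFE. The region chr3:104745183-104745906, 621.0 kb from ALCAM, a cell adhesion protein, had 15.5 and 60.6 at hDE and 51.4 and 14.0 at hAFE. The other 2 were chr8:136519185-136520045 between KHDRBS3 and FAM135B and chr4:32790714-32791243 between PCDH7 and ARAP2. Of the remaining regions shared by hAFE and hPFE only, chr8:136296385-136296907 (44.1 and 46.5 at hAFE, 27.0 in hPFE) and chr8:136489072-136489777 (37.4 and 43.6 at hAFE, 12.7 in hPFE) lie in that KHDRBS3 to FAM135B gap too, and chr8:82703077-82703503 lies between SNX16 and RALYL.

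**Figure D4:**
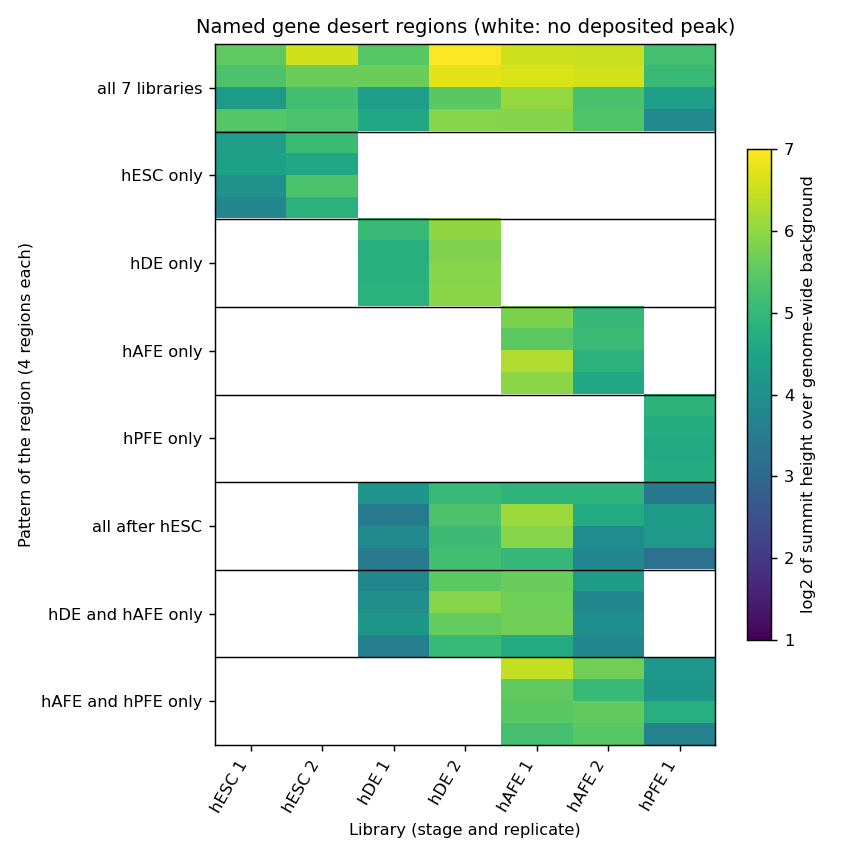
The named regions, 4 per pattern in rows, by library in columns. Colour gives log2 of the summit height over the genome-wide background, and white cells have no deposited peak. The blocks are white outside the stages that define them, and hDE replicate 2 is brighter than hDE replicate 1 in every row where both have a peak.

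Just inside the distance limit lay chr10:128626453-128627324, 500.029 kb from MKI67, chr12:17110223-17110673, 500.048 kb from LMO3, and chr9:81082881-81083547, 500.135 kb from TLE1. Just outside lay chr2:34099259-34099906, 499.959 kb from FAM98A, chr1:60573717-60574253, 499.946 kb from C1orf87, and chr9:73996840-73997392, 499.942 kb from RORB. The median distance of gene desert regions from the nearest protein-coding gene was 735 kb, with quartiles of 599 and 979 kb. Of all 8929 regions 6833 (76.5%) lay within 1 Mb, 2049 (22.9%) at 1 to 2 Mb and 47 (0.526%) beyond 2 Mb.

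The regions were spread over many intervals. The genome held 326 gaps of over 1 Mb between protein-coding genes, and 297 of them contained at least 1 gene desert region, with a median of 23 and a maximum of 162. Another 15 regions lay at chromosome ends. The number grew with the length of the gap's core, the part beyond 500 kb from either border, with Spearman's rho of 0.841 over the 155 gaps that had a core over 0.5 Mb and no stretch of 0.5 Mb free of deposited peaks. Those gaps share the same libraries, so the value is a description. Density in them ran from 3.8 to 69.2 regions per Mb of core, with a median of 39.3.

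Among these 155 gaps the densest core was that between RFPL4B and MARCKS on chromosome 6 (69.2 per Mb), followed by ZNF608 to GRAMD2B on chromosome 5 (68.7) and NEDD1 to TMPO on chromosome 12 (67.6). The sparsest was SPANXN2 to SPANXN1 on the X chromosome (3.8 per Mb), and the next, TGIF2LX to PABPC5 (5.86) and SH3BGRL to POU3F4 (14.1), were also on X. By chromosome, gene desert regions made up 12.1% of the strong regions of chromosome 13, 11.3% of chromosome 21 and 10.3% of chromosome 4. They made up 1.25% on chromosome 17 and 1.77% on chromosome 19.

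The 10 gaps with the most held 1168 gene desert regions (13.1%). The first, chr18:37774689-41955233 between LOC105372073 and PIK3C3, the class III phosphatidylinositol 3-kinase, held 162. Strong regions there numbered 34 and 26 at hESC, 41 and 69 at hDE, 29 and 37 at hAFE and 44 at hPFE. Of its regions 17 (10.5%) were gained in hDE, 12 (7.41%) lost in hAFE and 32 (19.8%) gained in hPFE, against 9.09%, 6.31% and 14.1% of all gene desert regions. One of its regions, at the start of the lncRNA LINC01902, was strong in all 7 libraries.

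Several of these gaps are bordered by genes of neural cell adhesion. The gap between TENM4, a teneurin, and FAM181B on chromosome 11 held 134 regions, that between AGA and TENM3 on chromosome 4 held 129, and that between MAT2B and TENM2 on chromosome 5 held 106. Strong regions in the TENM4 gap numbered 38 and 17 at hESC, 31 and 47 at hDE, 35 and 35 at hAFE and 33 at hPFE. Those in the TENM3 gap numbered 43 and 27 at hESC, 32 and 56 at hDE, 32 and 36 at hAFE and 39 at hPFE. Both gaps had strong regions at every stage. Each gained 18 regions in hPFE against hAFE, near the 14.1% of all gene desert regions. Each lost 12, which is 8.96% in the TENM4 gap and 9.30% in the TENM3 gap, against 6.32% of all gene desert regions.

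The gap between PCDH7 and ARAP2, 4.86 Mb long, held 118 regions, with 23 and 13 strong in hESC, 24 and 50 at hDE, 17 and 29 at hAFE and 43 at hPFE. Of them 22 (18.6%) were gained in hPFE, against 14.1% of all gene desert regions. The gap between ZEB2, a zinc finger factor of the neural crest and of epithelial to mesenchymal transition, and ACVR2A, an activin receptor, held 111, with 35 and 15 at hESC, 31 and 49 at hDE, 29 and 31 at hAFE and 27 at hPFE. The others were IGFBP7 to LOC124900173 (106), NUDT12 to EFNA5 (104), SPRY2 to SLITRK1 (102) and LSAMP to IGSF11 (96). The LSAMP gap, which holds the LINC03051 promoter printed above, had 4 regions strong in all 7 libraries.

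**Figure D5:**
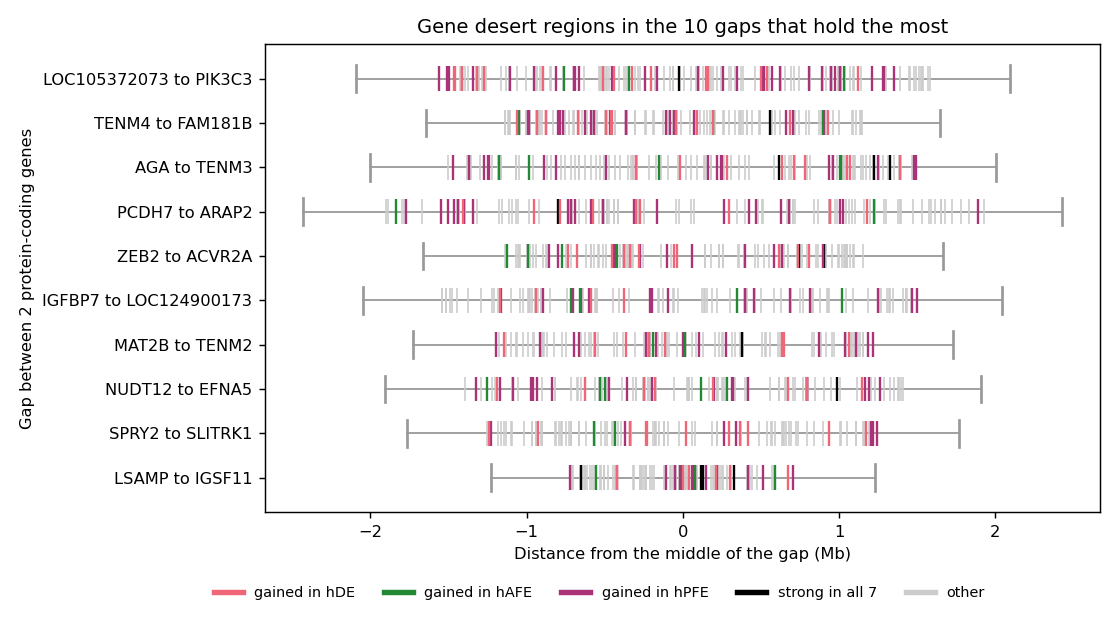
Each row is 1 of the 10 gaps with the most gene desert regions, drawn as distance from the middle of the gap in Mb, with the bordering genes at its ends. Ticks are gene desert regions, coloured as gained in hPFE against hAFE (172), gained in hAFE against hDE (34), gained in hDE against hESC (97), strong in all 7 libraries (14) or other (851), a region with several calls taking hPFE first. Gained regions lie among the others, but those of 1 stage do not span the core in every gap. In the IGFBP7 to LOC124900173 gap the 4 gained in hDE all lie left of the middle. Clustering was not measured.

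Beyond these, 2 gaps were picked after their values were seen. In the gap between GATA3, a factor of T cells, the inner ear and the parathyroid, and CELF2 (chr10:8075199-10462549), 19 of 62 gene desert regions (30.6%) were gained in hPFE, against 14.1% of all gene desert regions. Strong regions there numbered 14 and 8 at hESC, 12 and 22 at hDE, 14 and 9 at hAFE and 35 at hPFE, so the hPFE library stood above the other 6. In the gap between KHDRBS3 and FAM135B on chromosome 8, 13 of 75 (17.3%) were gained in hDE, against 9.09% of all gene desert regions.

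Genes on the borders of these gaps were described by 7 lists. Of all 19974 protein-coding genes 552 (2.76%) bordered a gap with a gene desert region. Of 24 cadherins and protocadherins, the calcium-dependent adhesion proteins, 18 (75%) did so, and their gaps held 942 regions (10.5%). Of 68 other genes of neural adhesion and axon guidance 35 (51.5%) did so, with 2039 regions (22.8%). Of 85 other developmental transcription factors 25 (29.4%) did so, with 829 regions. The lists were written by choice with the series' results known. A share therefore describes the chosen list and not a gene family, and a bordering gene is named for position only.

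Among the cadherins, the gaps of CDH8 held 145 regions, PCDH7 118, PCDH9 94, CDH11 88, PCDH10 86 and PCDH18 85. Strong regions beside CDH8 numbered 39 and 25 at hESC, 40 and 66 at hDE, 26 and 37 at hAFE and 40 at hPFE. CDH8 and CDH11 border 1 gap in common, so part of their regions is counted for both. Among the other adhesion genes, NCAM2, a neural cell adhesion molecule, had 139 regions, with 21 and 23 strong in hESC, 39 and 77 at hDE, 30 and 37 at hAFE and 33 at hPFE. In hDE 20 of the 139 regions beside NCAM2 and 18 of the 145 beside CDH8 were gained, against 9.09% of all gene desert regions. In hAFE 11 and 10 of them were lost, against 6.31% of all gene desert regions. SLITRK1 had 138, LRRC4C 125 and the teneurins the numbers given above.

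None of 19 endoderm transcription factors, SOX17, GATA4, GATA6, FOXA2 and EOMES among them, bordered a gap with a gene desert region. The share of all protein-coding genes was 2.76%, and 19 genes are too few to set none apart from it. Of 39 foregut and pharyngeal genes 9 (23.1%) did so, with 236 regions, of which 38 (16.1%) were gained in hPFE and 22 (9.32%) in hDE. Over all gene desert regions these shares were 14.1% and 9.09%.

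The gap between KCNJ2 and SOX9, a factor of cartilage and of the pharyngeal arches, held 40 gene desert regions. Strong ones numbered 8 and 9 at hESC, 10 and 16 at hDE, 4 and 9 at hAFE and 18 at hPFE. In hPFE 12 of the 40 were gained, against 14.1% of all gene desert regions and 9.27% of all regions. The hPFE library was the highest of the 7, 2 regions above hDE replicate 2. The gap beside TFAP2A, a neural crest factor, held 39, with 17 and 12 at hESC, 10 and 14 at hDE, 9 and 13 at hAFE and 13 at hPFE, and gained 4 at hPFE. SALL3, a zinc finger factor, had 31 regions and gained none in hPFE, IRX1 had 27 and gained 3, and TBX3, a T-box factor, had 25 and gained 6.

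Among the other developmental factors, the gap between MYC, the growth-promoting transcription factor, and GSDMC held 54 gene desert regions. Strong ones numbered 9 and 15 at hESC, 14 and 13 at hDE, 16 and 13 at hAFE and 28 at hPFE. In hPFE 11 of the 54 were gained. Over the gaps of the whole list the share gained in hPFE was 14.6%, near the 14.1% of all gene desert regions. NR2F2 and NR2F1, orphan nuclear receptors, had 92 and 63 regions and gained 15 and 6 at hPFE. BCL11B, a T-cell factor, had 53 and POU3F3 had 49, of which 7 and 3 were gained in hPFE. The hPFE library stood above the other 6 beside MYC and did not do so beside NR2F1 or POU3F3, where it had 15 and 7 strong regions.

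Of 15 pluripotency genes 4 bordered such gaps. DPPA4, which is expressed in pluripotent cells, had 25 regions, with 6 and 5 strong in hESC, 5 and 9 at hDE, 6 and 7 at hAFE and 10 at hPFE. ZFP42 had 12 and SOX2 7. Beside SOX2 there were 3 and 2 at hESC, 1 and 1 at hDE, 3 and 2 at hAFE and 3 at hPFE. No region beside SOX2 was gained or lost in hDE, where 9.09% and 2.08% of all gene desert regions were. Of 51 genes for signalling ligands and antagonists 3 (5.88%) bordered such gaps: NRG3 with 20 regions, FGF9 with 16 and BMP2 with 6.

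Annotated lncRNA genes covered 2251 gene desert regions (25.2%), against 31.2% of regions 100 to 500 kb from genes and 18.5% of all regions. At lncRNA promoters the order was different. Only 82 gene desert regions (0.918%) overlapped one, against 1.39% at 100 to 500 kb and 2.52% of all regions. The share was 42 of 4865 (0.863%) among regions strong in 1 library. It was 0.538%, 0.654%, 1.51% and 0.417% among those strong in 2, 3, 4 and 5 libraries, 3.06% (7 of 229) in 6 and 5.97% (8 of 134) in all 7. The share did not rise steadily with the number of libraries, and the highest values rest on few regions.

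The promoters at regions strong in all 7 libraries had a median G + C content of 59.3% (10 promoters), against 41.3% for the 44 promoters at regions strong in 1 library. The median was 44% over all 90 lncRNA promoters at gene desert regions, against 50% over all 12829 lncRNA promoters of the table and 58.7% over all 34961 promoters of any kind. The printed sequences span this range, with 59.3% for LINC02987 and LINC00662, 53.3% for LINC03051, 48.0% for LINC02394, 50.7% for LOC105372699, 38.7% for LINC01706 and 34.0% for LINC00613. Overlapping starts of 1 gene, and starts of different genes in 1 region, were counted separately.

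The GC box (GGGCGG) was present in 6 of the 10 promoters at regions strong in all 7 libraries. These 10 promoters lie in 8 regions. Both LINC02987 starts and the LINC00662 start, each with a GC box, share 1 region. It was in 14.4% of the 90 promoters at any gene desert region, against 25.6% of all lncRNA promoters and 45% of all promoters. AGATAA, the letters that GATA factors prefer, was in 24.4% of the 90, against 14.5% of lncRNA promoters and 10.3% of all. TGANTCA, the AP-1 letters, was in 21.1%, against 10.3% and 7.68%, and TATAAA in 20.0%, against 15.1% and 11.5%. GGATTA was in 12.2%, against 7.87% and 6.34%, and CCAAT in 36 of the 90, against 34.4% and 34.6%. The others were in few of the 90 and near both backgrounds: TGTTTAC in 4, ATTTGCAT in 2 and AGGTGTGA in 1, against 4.41%, 1.97% and 1.08% of lncRNA promoters. None of these differences was tested. All were counted on both strands of the 300 bases, the base content of the sets differs as given above, and a match is a description of the letters.

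The LINC03051 region had heights of 28.0 and 26.6 at hESC, 28.6 and 43.8 at hDE, 55.9 and 40.5 at hAFE and 16.8 at hPFE. LOC105372699 had 7.11 and 16.0 at hESC, LINC00613 had 10.9 and 28.3 at hDE and 17.1 and 14.0 at hAFE, and LINC01706 had 24.6 at hPFE. The region at the start of RMST, a lncRNA of neural differentiation picked after its values were seen, had 26.1 and 47.6 at hESC, 4.59 and 5.29 at hDE, 5.41 and 7.01 at hAFE and 2.65 at hPFE, strong in the hESC libraries only. The start of LETR1, in the gap between MCTP2 and NR2F2 and picked likewise, was strong in all 7 libraries, with 16.1 and 22.7 at hESC, 14.6 and 30.5 at hDE, 30.2 and 27.3 at hAFE and 12.9 at hPFE. Of miRNA genes, MIR663A lay in a region strong in 7 libraries, MIR6724-3 in 1 strong in 6 and MIR1251 in 1 strong in 1.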

How the data were processed

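ATAC-seq peak lists of 7 libraries of H1 cells were used, 1 list per library, none pooled. Per the submitters' processing notes the build was hg38 and DiffBind was used. The deposited file names record duplicate and mitochondrial read removal, Tn5 cut sites, a p limit of 0.01 and a limit of 300000 peaks. Neither the aligner nor the caller is given in the sources used here. Each deposited peak has a score, a fold enrichment (a ratio to a local background), a −log10 p, a −log10 q and a summit offset, all by the authors. The deposited score was not used.

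From fold and −log10 p a whole summit pileup and its local background were solved, within 0.001 of −log10 p for 100% of peaks, and the most frequent background was taken as genome-wide. The deposited lists can limit what is seen, since a weak peak beyond the limit of 300000 counts as absent. Peaks and regions shared at least 1 bp. Distances ran to gene spans of RefSeq (GRCh38.p14, the same build), and starts were taken from its promoter table. No peak of 2 libraries was identical in position and fold.

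Groups and replicate numbers came from the sample titles. Tests were exact permutation tests over libraries, adjusted over 6 tests, in Python 3.11.15 with NumPy 2.4.6, pandas 2.3.3, SciPy 1.17.1 and matplotlib 3.10.9, and were tested on simulated data. Named were the 4 regions with the lowest worst peak number of each pattern, the 10 gaps with the most regions, up to 6 bordering genes of each list with at least 3 regions, and the 3 regions on either side of the distance limit. One bordering gene that this rule names is not reported here. The gene desert regions and the gene lists were chosen with earlier results of these data known. Alternatives were other limits on number and distance, another definition of absence, windows of 250 bp either side of the summit, and each library left out. Genome sequence under the peaks was not used here.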

Additional observations from a re-analysis of the deposited data

How the results depend on the processing

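With strong peaks limited to 40000 or 120000 numbers there were 4292 or 13773 gene desert regions. Limits of 1 Mb or 250 kb left 2096 or 19661. The share strong in every library was 0.722% at 40000, 1.92% at 120000, 1.24% beyond 1 Mb and 1.89% beyond 250 kb. At 40000 the gained shares were 7.64% (hDE against hESC), 1.65% (hAFE against hDE), 11.9% (hPFE against hAFE) and 17.7% (hPFE against hESC), and the lost shares 1.05%, 4.87%, 4.12% and 5.82% in the same order of comparisons. At 120000 the lost shares were 2.75%, 7.22%, 7.98% and 9.47% in that order, and the gained shares of the hAFE against hDE and the hPFE against hAFE comparisons 3.8% and 15.1%. Beyond 1 Mb the hAFE gains were 2.43%. With absence taken as no strong peak, the gained shares were 13.9%, 7.32%, 21.5% and 24.8% and the lost shares 5.92%, 13.2%, 10.5% and 11.9%. The cause was not tested.

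Leaving out each library in turn gave 7194 to 8847 regions and 1.60% to 4.31% strong in every remaining library, the highest without hPFE. The gained shares were 9.47% to 21% (hDE), 2.84% to 6.89% (hAFE), 14.3% to 18.1% (hPFE against hAFE) and 19.6% to 23.9% (hPFE against hESC). The lost shares were 2.17% to 6.51%, 6.47% to 17.4%, 6.38% to 12.1% and 8.79% to 19.0% in that order. Where the omitted library belongs to a comparison, fewer libraries have to meet its rule. Where it does not, the share is taken of fewer regions. A rise follows from the construction in both cases. The difference in desert share ran from 0.00512 to 1.40 points, the stage contrast from 0.290 to 0.335, its excess over the rest from 0.0664 to 0.0812, the height difference from −4.48 to −3.59, the width difference from −81.4 to −72.0 bp and the partner share from −3.40 to −1.70 points.

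The 3 alternatives added after seeing the data were the rest taken at 100 to 500 kb, gaps without a peak-free stretch, and the hPFE library left out. Against regions at 100 to 500 kb the excess of the stage contrast was −0.000731, so it turned its sign. Without hPFE the stage contrast (0.290), its excess (0.0736), the height difference (−4.48) and the width difference (−74.0 bp) kept their sign with exact permutation adjusted p of 0.100, 0.100, 0.0938 and 0.0938, since fewer arrangements exist. With windows of 250 bp around summits the width difference was 0 by construction. Of the alternatives run, 161 values kept their call or stayed within their limits, 69 moved, 5 missed the threshold and 1 turned its sign. No paired analysis was possible because replicate numbers only name libraries, and the results are counts of peaks and permutations over whole libraries.

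Depth limits what a missing peak means. The lists ended at a −log10 p of 2.23 (hESC replicate 1) to 8.86 (hDE replicate 2), and between 2.64 and 4.77 in the other 5, so a missing peak does not mean the same strength in each. Reads from repeated sequence cannot be followed from these lists.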
